A study of Saccharomyces cerevisiae with 26 samples.

Results

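The mitochondrial ribosome of *Saccharomyces cerevisiae* was followed through the 54 nuclear genes whose standard name in release R64 of the genome is MRPL, MRPS or RSM followed by digits, out of 6600 genes in each library. The rule uses the names and no measured value. Of these genes, 34 encode proteins of the large subunit (MRPL) and 20 proteins of the small subunit (MRPS and RSM). By the ribosomal protein nomenclature, 33 of the proteins have homologs in bacterial ribosomes and the other 21 are particular to mitochondria, counting *RSM22*, which carries no such code. A further 23 mitoribosomal genes with other names (such as *MRP7*, *IMG1* and *NAM9*) were kept as a separate list.

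The mitoribosome is built in the matrix from rRNAs of the mitochondrial genome and proteins that are made in the cytosol and imported, with Var1 as the protein made inside. It translates a handful of hydrophobic, mitochondrially encoded subunits of the respiratory chain and the ATP synthase, so that its supply is tied to respiratory growth. Many of the nuclear messages are bound behind the stop codon by the RNA-binding protein Puf3, which is known to govern their decay and translation with the carbon source.

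RNA came from aerobic, glucose-limited bioreactor cultures of 1 strain, CEN.PK113-7D, in synthetic medium. The 12 steady-state libraries, all at a dilution rate set to 0.025 per hour, form 4 groups of 3. The reference was kept at pH 5 and sparged with air (0.04% CO2). A group each differed from it in gas (50% CO2 at pH 5) and in acidity (pH 3 in air), and the last combined pH 3 and 50% CO2. In that last group 1 library carries the chemostat label and 2 are the first sampling point of the industrial retentostats, which share pH, gas and dilution rate. A retentostat holds all biomass back while glucose is fed, so that growth slows towards zero, and 2 cultures under laboratory conditions (pH 5, 0.04% CO2) and 2 under industrial conditions (pH 3, 50% CO2) were each sampled at 4 points, which gave 8 libraries per condition. The sample labels give the order of the points but not their growth rates, so trends were fitted over points 1 to 4 in equal steps. By the study's methods, the pH 3 cultures oscillated in off-gas composition and were sampled regardless. The oscillations subsided later in the retentostat phase, so that slower growth and their end are not separated in the industrial series. The study also reports lower viability in the more acidic chemostats, and faster growth of their viable cells once rates were corrected for viability. Equal dilution rates therefore do not mean equal growth of viable cells. The part of viability and growth rate in the differences between steady-state groups was not tested. In the industrial retentostats the study found viability well below that of the laboratory ones, and its part in the trends was not tested either.

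Between 12528587 and 86470818 reads per library fell on genes. Levels are FPKM, reads per unit of gene length and of library depth, divided by 1 factor per library (scaled FPKM). Changes are log2 differences of scaled FPKM + 1 with their standard error (SE) from limma, and a gene was called at a Benjamini-Hochberg adjusted p under 0.05 over the 5506 genes whose FPKM averaged 10 or more across the 26 libraries. All 54 genes passed that filter, but *RSM18* passed through the laboratory retentostats alone: it was listed between 0 and 0.6 in the 18 other libraries and between 207 and 335 in those 8. A total of 36 genes were listed at 1 FPKM or less in all 18 and at 10 or more in all 8. *RSM18* was therefore described only in the laboratory retentostats, which leaves 53 measured genes elsewhere. *MRPL38*, a conserved protein of the large subunit, was between 3.5 and 10.5 in the laboratory retentostats and between 179 and 643 in all others. By the methods the laboratory retentostats were sequenced by another company with single-end reads, and levels were not compared between them and the rest. *VAR1*, the mitochondrially encoded subunit, was listed at or near 0 in all 26 libraries, whose RNA was selected by its poly(A) tail.

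Nearly all of these genes carry the letters of a Puf3 site. The letters TGTANATA (N, any base) occurred on the coding strand within 200 bases after the stop codon in 53 of the 54 genes (98.1%), against 844 of 5898 coding genes of the files in R64 (14.3%). On the opposite strand of the same windows they occurred in 10 of the 54 (18.5%) and in 13.1% of all. All 34 large-subunit genes held a match, as did 19 of 20 small-subunit genes, *RSM22* being the exception. The first match began between 8 and 139 bases behind the stop codon, with a median of 54, and 12 genes held more than 1. The fifth letter of the first match was A in 25 genes, T in 16, C in 11 and G in 1, *MRPL3*. A match is a run of letters and not a measured binding site.

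The first match with up to 8 bases on either side is printed for the genes named for the 2 retentostat trends, and for *MRPL19* and *RSM7*, added after their chemostat values were seen. The fifth letter of the match varies among them. Sequences are from the RefSeq copy of R64, 5′ to 3′ on the coding strand, with the match in capitals.
*MRPL33*, chrXIII:842252-842275, plus strand: cttatataTGTATATAgtattatt
*MRPL37*, chrII:741641-741664, plus strand: ggtatcctTGTAAATAaatatgtg
*MRPL44*, chrXIII:720857-720880, minus strand: agcaagccTGTAAATAatatatat
*RSM18*, chrV:253889-253912, minus strand: gttctgtcTGTAAATAtacaatat
*MRPL4*, chrXII:1015470-1015493, plus strand: ctctctccTGTAAATAtatatata
*MRPL3*, chrXIII:323057-323080, plus strand: tgccatttTGTAGATAgagaactc
*MRPL11*, chrIV:99270-99293, plus strand: ttcaatcaTGTACATAcatcatca
*MRPL40*, chrXVI:224136-224159, plus strand: attcgaccTGTATATAtgaaagca
*MRPL8*, chrX:315717-315740, minus strand: tattccctTGTAAATAtatagatg
*MRPL19*, chrXIV:292091-292114, minus strand: atctattcTGTAAATAtgtatata
*RSM7*, chrX:638195-638218, minus strand: aacttgccTGTACATAaacacatt

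Levels spanned a wide range within each subunit. Over the 12 steady-state libraries the mean scaled FPKM of large-subunit genes ran from 64.5 to 568.96 with a median of 168, and that of small-subunit genes from 27.7 to 838 with a median of 145. The highest large-subunit genes were *MRPL39* (568.96 ± 116, SD, n = 12) and *MRPL23* (466 ± 44.3), and the lowest *MRPL25* (64.5 ± 17.7) and *MRPL1* (76.0 ± 9.74). In the small subunit *MRPS12*, the homolog of the bacterial decoding-centre protein S12, stood highest (838 ± 180), followed by *MRPS16* (348 ± 116), and *RSM22*, a methyltransferase-like protein, was lowest (27.7 ± 8.29), below *RSM24* (51.0 ± 6.22). These SDs run over all 4 groups. The subunits were closely matched in how their summed picture moved: relative to each gene's own mean in a series, the average over large-subunit genes and the average over small-subunit genes in the same library lay side by side in all 3 series.

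**Figure D1:**
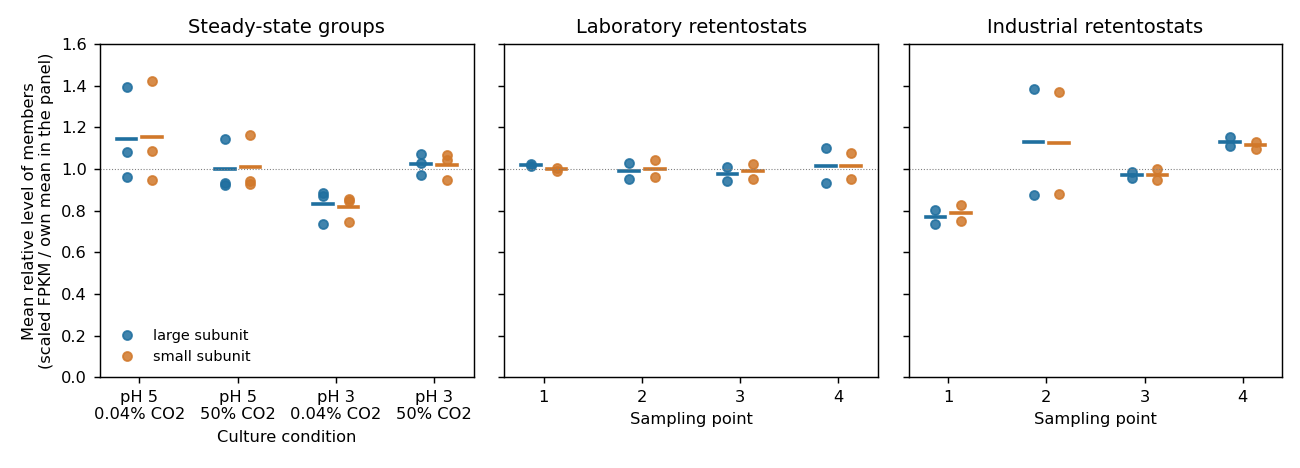
Mean relative level of the large-subunit (blue) and small-subunit (orange) genes in each library; each gene's scaled FPKM is divided by its own mean over the libraries of the panel, points are libraries and bars group means. The averages over all members run from 0.740 to 1.403 in the steady-state groups, from 0.940 to 1.09 in the laboratory series and from 0.741 to 1.38 in the industrial series, and the 2 industrial point 1 libraries also stand in the pH 3, 50% CO2 group.

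Several libraries stood apart from their replicates in this measure. In the reference group, replicates 1, 2 and 3 averaged 0.957, 1.08 and 1.403 over the 53 genes, and replicate 3 held the highest of all 12 values for 38 genes. In the industrial series at point 2, culture 1 averaged 1.38 and culture 2 averaged 0.875, and culture 1 held the highest of the 8 values for 48 of 53 genes. At pH 5 with 50% CO2 replicate 1 averaged 1.15 and the others 0.935 and 0.923, and at pH 3 with 0.04% CO2 replicate 1 averaged 0.740 and the others 0.874 and 0.864, replicate 1 holding the lowest of the 12 values for 40 genes. Deviations of reference replicate 3 and of replicate 1 at pH 5 with 50% CO2 from their group means correlated across genes with r = 0.829. Values without these libraries stand beside the results that they moved most. Counts of members called without a library are given without the share of all genes called in the same fit. The comparisons between steady-state groups share libraries, among them the reference. In bulk RNA a share of cells with less of a transcript and less of it in every cell cannot be told apart.

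Exposure to 50% CO2 at pH 5 left all members below the calling threshold. Of 53 genes, 51 had a lower mean than in the reference, with a median log2 change of −0.19 (range −0.39 to 0.10), but none was called by limma in either direction, against 0.763% of all genes called higher and 1.05% lower. At an unadjusted p under 0.05, 5 members were lower and 0 higher. The largest fall was that of *RSM10*, homolog of the bacterial protein S10, from 182, 196 and 286 in the reference to 189, 159 and 150 (log2 change −0.39, SE 0.16, adjusted p = 0.36), and the libraries overlapped. In 7 members all libraries at 50% CO2 lay below the reference, against 7.97% of all genes, and in 0 above it, against 7.74%. *RSM24*, specific to mitochondria, had the largest positive value (0.10, SE 0.12, adjusted p = 0.87). Without reference replicate 3 the median of the 53 changes was −0.04.

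Acidity alone, at pH 3 in air, went with lower levels of the set. Compared with pH 5 in air, 50 of 53 genes were lower, with a median log2 change of −0.51 (a fold of 1.43) beside a median of 0.01 over all genes. In this comparison 23 members fell (43.4%) and 1 rose, where 8.06% of all genes were called lower and 12.7% higher. The medians of the subunits were alike, −0.51 for large and −0.51 for small, with 15 of 34 large-subunit and 8 of 19 small-subunit genes called lower. Among conserved proteins 14 of 32 fell and among mitochondria-specific proteins 9 of 21. In 40 members all pH 3 libraries lay below all reference libraries, against 19.7% of all genes.

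The largest fall was that of *RSM10*, from 182, 196 and 286 to 106, 114 and 123 scaled FPKM (log2 change −0.92, SE 0.16, adjusted p = 0.0033). *MRPL35*, a mitochondria-specific protein of the large subunit, fell from 130, 120 and 158 to 70.2, 80.7 and 77.9 (−0.82, SE 0.12, adjusted p = 0.0016). The small-subunit gene *RSM25*, also mitochondria-specific, fell from 59.0, 64.1 and 100.5 to 35.9, 41.7 and 45.6 (−0.81, SE 0.19, adjusted p = 0.015). In all 3 the groups did not overlap, and the reference library that stood apart was the highest each time.

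A single member rose at low pH. *MRPL4*, homolog of the bacterial protein L29 at the exit of the peptide tunnel (chromosome XII, 1014491 to 1015450, plus strand), went from 47.1, 81.4 and 63.5 in the reference to 111, 137 and 148 (log2 change 1.05, SE 0.21, adjusted p = 0.0071). Every pH 3 library was above every reference library. *MRPL19*, *MRPL3*, *RSM7* and *MRPS12* also stood outside the fall, with log2 changes of 0.03, −0.03, −0.13 and 0.19 and adjusted p-values between 0.49 and 0.91. These 4 were singled out because they recur in the comparisons below.

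The size of the fall at low pH depended on single libraries, though not its direction. Leaving out reference replicate 3 gave a median of −0.34 and 7 members called lower, and leaving out reference replicate 2 gave 15. Leaving out replicate 1, 2 or 3 at pH 3 gave 10, 10 and 9. The values as deposited, in which the median of all genes itself fell by 0.42 on the log2 scale, gave a median of −0.96 for the members with 49 called lower, which is −0.54 relative to all genes. *MRPL4* was called higher under each of these.

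**Figure D2:**
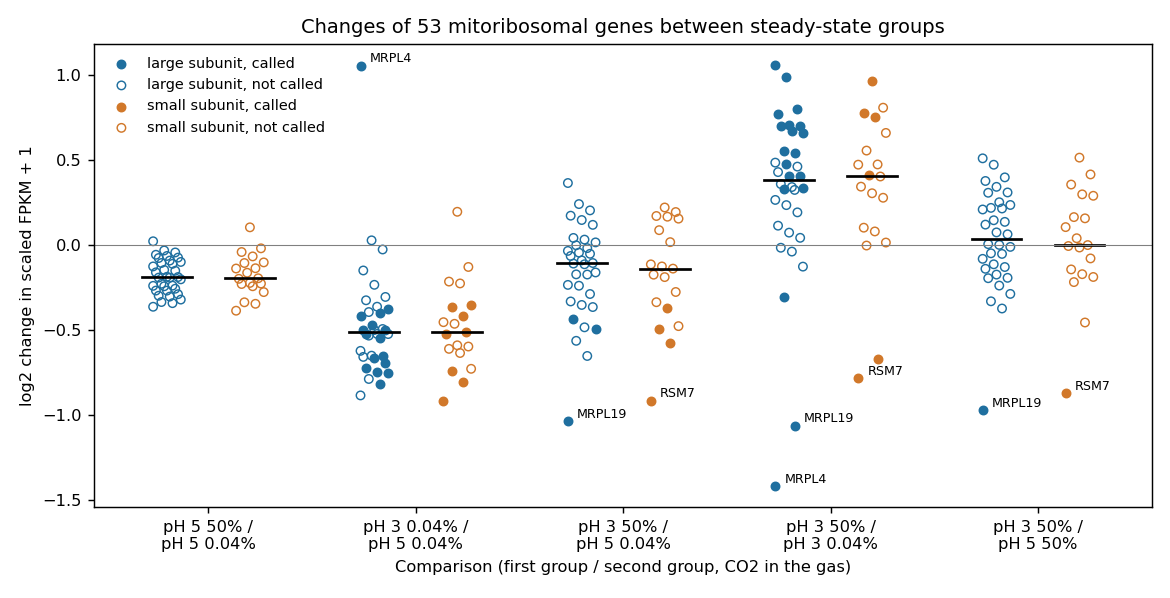
Log2 change of each of the 53 measured genes (y axis) in the 5 comparisons between steady-state groups; filled points are called at an adjusted p under 0.05, open points are not, and black bars are subunit medians. The sets shift down at pH 3 with 0.04% CO2 and up from there to pH 3 with 50% CO2, where *MRPL4*, *MRPL19* and *RSM7* are among the 5 genes called lower. *MRPL4* is the only gene called higher at pH 3 with 0.04% CO2 against the reference.

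At pH 3, adding 50% CO2 went with higher levels of most members. Against pH 3 with 0.04% CO2, 44 of 53 genes were higher, with a median log2 change of 0.40 beside 0.00 over all genes. Members called higher numbered 20 (37.7%) and members called lower 5 (9.43%), against 21.4% and 25.7% of all genes. The rises were those of 16 of 34 large-subunit and 4 of 19 small-subunit genes, though the medians of the subunits were alike at 0.38 and 0.40. In 36 members all libraries of the high-CO2 group lay above all of the low-CO2 group, against 32.3% of all genes.

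*MRPL24*, homolog of the bacterial protein L28, rose from 65.1, 75.4 and 76.9 to 156 in the library labelled as a chemostat and 132 and 169 in the 2 from retentostats (log2 change 1.06, SE 0.32, adjusted p = 0.023). *MRPL50*, homolog of L9, rose from 134, 147 and 156 to 350, 226 and 306 in the same order (0.99, SE 0.27, adjusted p = 0.015). *MRPS8*, homolog of S8, rose from 41.0, 35.8 and 34.7 to 83.7, 60.2 and 78.0 (0.96, SE 0.22, adjusted p = 0.0064). In each of these genes the lowest high-CO2 library was above the highest low-CO2 library.

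None of the 5 genes that fell had been called lower at low pH. *MRPL4* went from 111, 137 and 148 to 42.3, 52.5 and 50.4 (log2 change −1.42, SE 0.21, adjusted p = 0.0011). *MRPL19*, homolog of L11 in the stalk base, went from 113, 124 and 124 to 51.4, 60.1 and 60.0 (−1.07, SE 0.13, adjusted p = 5e-04). *RSM7*, homolog of S7, which organises the head of the small subunit, went from 250, 302 and 297 to 131, 193 and 172 (−0.79, SE 0.16, adjusted p = 0.0045). Groups were separate in all 3. *MRPS12* (−0.67, SE 0.20, adjusted p = 0.019) and *MRPL3* (−0.31, SE 0.11, adjusted p = 0.044) completed the list, though with the values as deposited *MRPL3* turned to 0.31 and *MRPS12* came to −0.05. On that scale, where the median of all genes moved by 0.59, 48 members were called higher and 2 lower, and the members' median was 0.43 above that of all genes.

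Single libraries moved this count as well. Leaving out the library labelled as a chemostat gave 6 members called higher and 3 lower, and leaving out the second retentostat culture gave 5 higher. Without pH 3, 0.04% CO2 replicate 1, 2 or 3 the counts were 4, 9 and 8 higher, and without replicate 2 or 3 they were 3 lower each. The median stayed between 0.34 and 0.42 throughout. With the chemostat-labelled library as the whole group, 4 members were called higher, in a fit that takes the spread from the other groups and assumes that the lone library varies like them.

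Against the reference, the combination of low pH and high CO2 left the set near its starting level. The median was −0.12 and 7 members were called lower (13.2%) against 5.76% of all genes, with 0 called higher against 3.71%. At an unadjusted p under 0.05, 15 were lower and 0 higher. *MRPL19* fell most, from 109, 133 and 114 to 51.4, 60.1 and 60.0 (log2 change −1.04, SE 0.13, adjusted p = 0.0012). *RSM7* fell from 282, 359 and 292 to 131, 193 and 172 (−0.92, SE 0.16, adjusted p = 0.0070), and *RSM10* was lower by a smaller step (−0.58, SE 0.16, adjusted p = 0.046). *MRPL50* had the largest positive value (0.36, SE 0.27, adjusted p = 0.39). With values as deposited, where the median of all genes was 0.18, the median of the members turned to 0.06 and 2 were called lower. Without industrial culture 1 or 2, or the chemostat-labelled library, the counts called lower were 4, 2 and 2. Without reference replicate 2 the count was 3, without replicate 2 or 3 at pH 5 with 50% CO2 it was 4 each, and without replicate 2 or 3 at pH 3 with 0.04% CO2 it was 3 each. Without reference replicate 3 it was 6, and the median turned to 0.03. *MRPL19* and *RSM7* were called in every one of these fits.

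Between the 2 groups at 50% CO2, pH 3 against pH 5, the median member did not move (0.00, with 27 of 53 positive). *MRPL19* (−0.97, SE 0.13, adjusted p = 0.0024) and *RSM7* (−0.87, SE 0.16, adjusted p = 0.014) were again called lower, 2 members in all (3.77%) against 3.11% of all genes. None was called higher by limma, against 2.52% of all genes, and at an unadjusted p under 0.05 the counts were 3 lower and 0 higher. Without pH 5, 50% CO2 replicate 1, 2 members were called higher, and without replicate 2 or 3 only 1 was called lower. *MRPS16* had the largest positive value (0.51, SE 0.28, adjusted p = 0.24).

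The interaction of pH and CO2 tests whether CO2 acted differently at the 2 pH values. The median difference was 0.61 on the log2 scale, positive in 48 of 53 genes. Members called numbered 8 with a positive difference (15.1%) and 3 with a negative one (5.66%), against 5.70% and 13.2% of all genes. *MRPS8* (1.03, SE 0.31, adjusted p = 0.041), *MRPL51* (1.03, SE 0.32, adjusted p = 0.048) and *MRPL32*, a protein matured by the m-AAA protease (0.97, SE 0.29, adjusted p = 0.043), led the positive ones. *MRPL4* (−1.39, SE 0.30, adjusted p = 0.014), *MRPL19* (−0.999, SE 0.19, adjusted p = 0.0081) and *RSM7* (−0.74, SE 0.23, adjusted p = 0.047) were the negative ones. The positive count ranged from 0, without pH 5, 50% CO2 replicate 2, to 31, without replicate 1 of that group. It was 21 without reference replicate 1 and 2 without reference replicate 3, and 4 without the chemostat-labelled library. It was 1 without industrial culture 2 or without pH 5, 50% CO2 replicate 3, and it was 3, 2 and 1 without pH 3, 0.04% CO2 replicate 1, 2 and 3. With values as deposited it was 45 against 1, and after quantile normalization 21 against 2.

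The other genes of mitochondrial translation were read beside these. At low pH alone, where 8.06% of all genes were called lower and 12.7% higher, 9 of the 23 other mitoribosomal genes fell (39.1%) and 0 rose, with a median of −0.48, led by *MRP21* (−0.72, SE 0.19, adjusted p = 0.023). *MRF1*, the release factor of mitochondrial translation, fell (−0.73, SE 0.16, adjusted p = 0.011) as 1 of 8 translation factors tested, and *MSD1*, the mitochondrial aspartyl-tRNA synthetase, fell most (−0.71, SE 0.15, adjusted p = 0.0083) of the 3 of 13 synthetases called lower. *SLM5*, the asparaginyl enzyme, rose (0.31, SE 0.10, adjusted p = 0.049). *OXA1*, the insertase that receives nascent chains from the mitoribosome, rose (0.85, SE 0.11, adjusted p = 7.7e-04), as *MRPL4* did. Of 36 nuclear genes of oxidative phosphorylation, 5 rose (13.9%, near the 12.7% of all genes) and 0 fell, with *SDH1* first (1.28, SE 0.26, adjusted p = 0.0073). The 132 cytosolic ribosomal protein genes had a median of −0.03, with 3 called higher and 6 lower. The 56 ribosome biogenesis genes had a median of −0.35 with 49 negative, and 5 were called lower (8.93%, near the 8.06% of all genes). Of these *NOP56* fell most (−0.81, SE 0.26, adjusted p = 0.049), and 1 gene, *NOP1*, was called higher (0.95, SE 0.21, adjusted p = 0.0099).

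From there to pH 3 with 50% CO2, where 21.4% of all genes were called higher and 25.7% lower, 8 of the 23 other mitoribosomal genes rose (34.8%) and 3 fell. *IMG1*, the homolog of L19, fell by 0.996 on the log2 scale (SE 0.16, adjusted p = 0.0015), and *MRP21* rose (0.68, SE 0.19, adjusted p = 0.016). *OXA1* fell by 0.82 (SE 0.11, adjusted p = 7.4e-04). Among 14 translational activators tested, 7 rose (50.0%), most of all *CBS1*, an activator of cytochrome b translation (0.81, SE 0.17, adjusted p = 0.0050), and *MSS51*, the activator of *COX1*, fell by 0.91 (SE 0.15, adjusted p = 0.0017). Genes of oxidative phosphorylation were called lower in 8 (22.2%) and higher in 2 cases (5.56%), both below the shares of all genes. Of 56 ribosome biogenesis genes, 30 rose (53.6%), *NOP14* most (1.31, SE 0.33, adjusted p = 0.011), and 1 fell, with a median of 0.62. *PUF3* itself fell by 0.43 (SE 0.12, adjusted p = 0.016), from 19.1, 17.9 and 16.4 to 12.3, 12.8 and 13.7 scaled FPKM. *HAP3*, kept in the same list of 5 regulators, rose (0.75, SE 0.20, adjusted p = 0.012). From point 1 to point 2 of the industrial series *PUF3* was called higher (0.46, SE 0.11, adjusted p = 0.040), where all 53 members also had a higher mean. A part of *PUF3* in these changes was not tested.

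In the laboratory retentostats the set as a whole kept its level as growth slowed. The median slope over 54 genes was 0.01 log2 units per sampling point, beside 0.02 over all genes, and the per-library averages stayed between 0.940 and 1.09. Members called numbered 7 rising and 5 falling of 54, against 17.0% and 13.4% of all genes, so neither share exceeded the background. Slopes of single members ran from −0.73 to 0.33 per point, with an SD of 0.18 over members beside 0.22 over all genes. All 5 falling genes are of the large subunit, which holds 34 of the 54.

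*MRPL33*, homolog of L30 and among the shortest of the genes, rose most. Its values in cultures 1 and 2 were 195 and 191 at point 1, 222 and 223 at point 2, 335 and 303 at point 3, and 371 and 361 at point 4 (slope 0.33, SE 0.04, adjusted p = 0.0063). *MRPL37*, mitochondria-specific, went from 108 and 109 at point 1 through 136 and 116, then 171 and 184, to 186 and 206 at point 4 (0.30, SE 0.05, adjusted p = 0.0067). *RSM18*, homolog of S18, went from 207 and 208 through 320 and 211, then 294 and 292, to 318 and 335 (0.21, SE 0.06, adjusted p = 0.031). Both cultures were above their point 1 values at point 4 in all 3 genes.

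*MRPL4* fell furthest of the members. It went from 85.5 and 104 at point 1 through 68.6 and 64.8, then 25.8 and 19.2, to 33.7 and 16.9 at point 4 (slope −0.73, SE 0.14, adjusted p = 0.0084). *MRPL3*, mitochondria-specific with an RNase III-like fold, went from 95.7 and 99.4 through 110 and 80.7, then 51.3 and 45.2, to 57.2 and 40.2 (−0.40, SE 0.09, adjusted p = 0.014). *MRPL11*, homolog of the stalk protein L10, went from 110 and 118 through 86.9 and 87.8, then 61.8 and 55.2, to 66.5 and 49.7 (−0.35, SE 0.06, adjusted p = 0.0077). The step in *MRPL4* and *MRPL3* lies between points 2 and 3 in both cultures, with little further change to point 4. *MRPL40*, homolog of L24 (−0.25, SE 0.05, adjusted p = 0.0085), and *MRPL8*, homolog of L17 (−0.23, SE 0.04, adjusted p = 0.0091), completed the falling genes. With the limits of the methods, an adjusted p under 0.03 and R2 over 0.8, 5 rose and 3 fell.

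**Figure D3:**
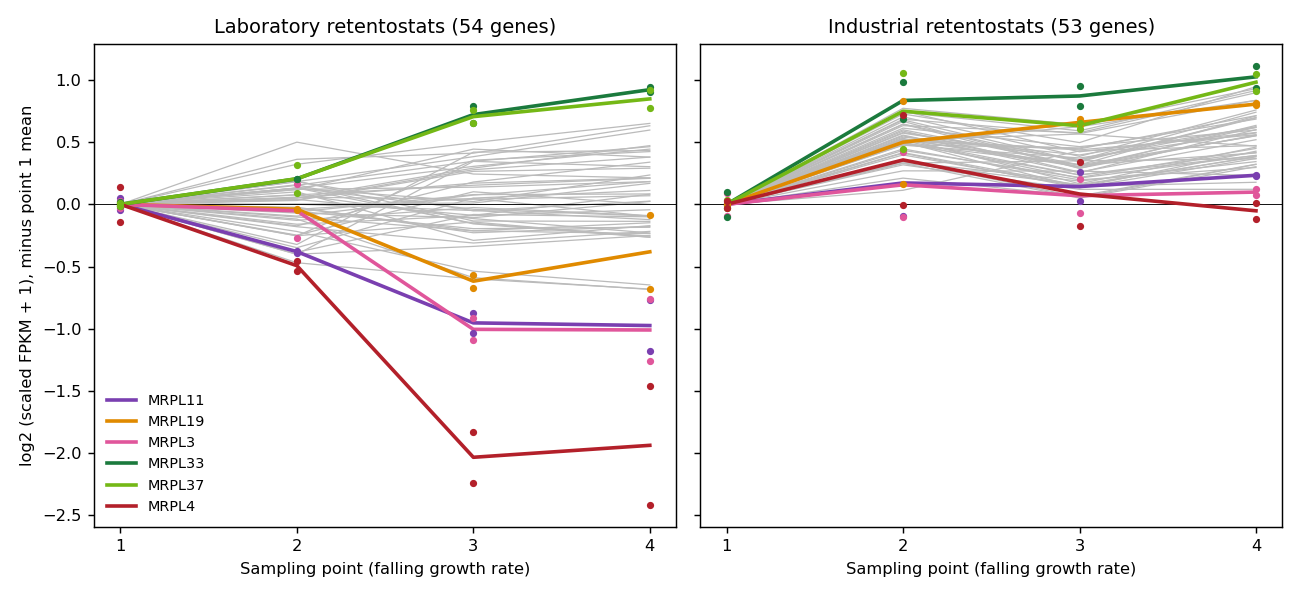
Mean log2(scaled FPKM + 1) of each gene at sampling points 1 to 4, less its point 1 mean, in laboratory (left) and industrial (right) retentostats; coloured lines are 6 named genes with points for the 2 cultures, grey lines the other members. In the laboratory series the lines reach from −1.94 (*MRPL4*) to 0.92 (*MRPL33*) by point 4. The SD of these changes is 0.485 over members and 0.61 over all genes. In the industrial series nearly all lines lie above 0 from point 2 on.

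Point 4 against point 1 in the laboratory series gave the same picture, with 6 members called higher against 15.8% of all genes and 5 lower against 13.4%. *MRPL33* (0.92, SE 0.12, adjusted p = 0.0062), *MRPL37* (0.85, SE 0.13, adjusted p = 0.0083) and *MRPL50* (0.60, SE 0.12, adjusted p = 0.014) rose, as did *MRPL51*, *MRPS16* and *MRPL6* by 0.47, 0.44 and 0.38 (adjusted p = 0.026, 0.044 and 0.045). *MRPL4* fell by 1.94 (SE 0.31, adjusted p = 0.0089) and *MRPL3* by 1.01 (SE 0.21, adjusted p = 0.018), and *MRPL11*, *MRPL40* and *MRPL8* fell by 0.97, 0.68 and 0.65 (adjusted p = 0.0094, 0.012 and 0.016). With culture as a block the call of *MRPL6* was lost. From point 1 to point 2 limma called 0 of 54 members and 0.0% of all genes, and at an unadjusted p under 0.05 1 member was lower and 0 higher. *MRPL38* (0.50, SE 0.39, adjusted p = 0.41) and *MRPL4* (−0.49, SE 0.31, adjusted p = 0.33) had the largest values, and *MRPL15*, named after its values were seen, was the 1 under that limit (−0.40). *MRPL38* was low throughout this series, with 4.79 and 3.50 at point 1 and 10.5 and 3.54 at point 2 in cultures 1 and 2. From point 2 to point 4, 3 members rose (*MRPL33*, 0.72, *MRPL20*, 0.68, and *MRPL37*, 0.64, adjusted p = 0.020, 0.039 and 0.029) against 7.86% of all genes, and 3 fell (*MRPL4*, −1.44, *MRPL3*, −0.96, and *MRPL40*, −0.57, adjusted p = 0.031, 0.034 and 0.034) against 7.30%. The block took away the call of *MRPL20* there.

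Leaving out 1 laboratory library moved these counts. The trend gave 3 rising without either point 1 library or point 4 culture 2, 4 without either point 3 library, and 13 without point 2 culture 1. For point 4 against point 1 there were 0 calls in either direction without either point 1 library, and the higher count was 12 without either point 2 library, 3 without either point 3 library or point 4 culture 1, and 1 without point 4 culture 2, which also left 2 lower. From point 1 to point 2, leaving out point 2 culture 2 gave 5 higher and 5 lower. For point 4 against point 2 the higher count was 6 and 9 without point 2 culture 1 and 2 and 0 without any other library, and the lower count was 9 without point 2 culture 2, 1 without point 4 culture 1 and 0 without point 1, point 3 or point 4 culture 2.

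In the industrial retentostats most of the set had higher levels at slower growth, though few members passed the test. The slope was positive in 52 of 53 genes, with a median of 0.15 log2 units per sampling point beside 0.00 over all genes. Members called numbered 7 rising (13.2%), 5 of the large and 2 of the small subunit, against 8.46% of all genes, and none fell, against 7.95%. At an unadjusted p under 0.05 the counts were 15 and 0. At point 4 against point 1 the median change was 0.55 (a fold of 1.47), 14 members rose (26.4%) and 0 fell, against 13.7% and 13.3% of all genes, and 30 rose and 0 fell at an unadjusted p under 0.05. In 51 of 53 genes both point 4 libraries lay above both point 1 libraries, against 40.0% of all genes.

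*MRPL33* had the steepest slope here too, from 388 and 445 at point 1 through 824 and 667, then 719 and 804, to 796 and 899 at point 4 (slope 0.31, SE 0.07, adjusted p = 0.025). *MRPL37* went from 289 and 302 through 614 and 401, then 466 and 450, to 557 and 612 (0.28, SE 0.08, adjusted p = 0.039), a call that the culture block took away. *MRPL44*, mitochondria-specific and the only member with an intron, went from 190 and 221 through 364 and 277, then 293 and 318, to 370 and 394 (0.26, SE 0.06, adjusted p = 0.024). Point 2 of culture 1 is the peak or close to it in each, and in *MRPL44* both cultures were highest at point 4. *MRPL4* was the only gene with a negative slope, at 52.5 and 50.4 at point 1, 85.4 and 51.3 at point 2, 65.5 and 45.5 at point 3, and 51.9 and 47.4 at point 4 (−0.04, SE 0.09, adjusted p = 0.76).

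At point 4 against point 1, *MRPL33* (1.02, SE 0.14, adjusted p = 0.0053), *MRPL37* (0.98, SE 0.19, adjusted p = 0.012) and *MRPL25*, mitochondria-specific (0.95, SE 0.22, adjusted p = 0.022), rose most. *MRPL25* went from 59.9 and 74.02 to 125 and 134. *MRPL4* had the only negative value (−0.05, SE 0.25, adjusted p = 0.89), which was 0.01 with the values as deposited. At point 2 the median change from point 1 was 0.51, or 0.17 without culture 1 of point 2, in which the members stood apart. Culture 2 averaged 0.811, 0.875, 0.989 and 1.14 over points 1 to 4. With both cultures all 53 genes had a higher mean at point 2, and 4 were called (7.55%) against 6.43% of all genes, none lower against 7.88%, and 28 and 0 at an unadjusted p under 0.05. These were *MRPL33* (0.83, SE 0.14, adjusted p = 0.026), *MRPL50* (0.77, SE 0.19, adjusted p = 0.043), *MRPL37* (0.75, SE 0.19, adjusted p = 0.044) and *MRPL44* (0.63, SE 0.15, adjusted p = 0.040), and with culture as a block 1 of them, *MRPL33*, was called. From point 2 to point 4 the median was 0.03 and limma called none in either direction, against 0.545% of all genes higher and 0.327% lower, with 1 higher and 0 lower at an unadjusted p under 0.05. *RSM22* (0.36, SE 0.11, adjusted p = 0.15) and *MRPL4* (−0.41, SE 0.25, adjusted p = 0.40) had the largest values.

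The library that stood apart at point 2 moved the number of industrial calls. Shares of all genes called in the fits below are not given, so these member counts are not set against a background. Without point 2 culture 1 the trend called 48 members rising with a median slope of 0.18, and point 4 against point 1 called 47. The step from point 1 to point 2 then had a median of 0.17 and 2 calls, against 0.82 and 52 calls without culture 2. Each culture has 1 library at point 2, so that culture and library cannot be told apart. From point 2 to point 4 the medians were 0.34 with 2 higher and −0.33 with 1 higher and 24 lower. Without other libraries the counts fell. The trend called 0 and 1 without point 1 culture 1 and 2, 4 and 3 without point 3 culture 1 and 2, and 3 and 0 without point 4 culture 1 and 2. In the same order point 4 against point 1 called 0 and 6, 8 and 8, and 1 and 0, besides 47 without point 2 culture 2. The step from point 1 to point 2 called none without any library of points 1, 3 or 4. Slopes of the members had positive medians in every one of these fits.

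The slopes of the 2 conditions were compared directly in all 16 libraries. The industrial slope was the more positive in 47 of 53 genes, with a median difference of 0.13 per point beside −0.02 over all genes. Members with a more positive industrial slope numbered 7 (13.2%) against 2.69% of all genes, and none had a more negative one, against 2.58%, with 15 and 0 at an unadjusted p under 0.05. *MRPL4* (0.69, SE 0.16, adjusted p = 0.028), *MRPL19* (0.43, SE 0.10, adjusted p = 0.028) and *MRPL3* (0.42, SE 0.11, adjusted p = 0.035) differed most, and 6 of the 7 are of the large subunit. *MRPL19* was at 98.6 and 99.6 at point 1 and 93.5 and 61.5 at point 4 in the laboratory series, and at 60.1 and 60.0 at point 1 and 107 and 105 at point 4 in the industrial series. By their titles the later points carry different numbers in the 2 series, so that a step need not span the same interval in both. By the study, glucose in the feed was lowered over time in the laboratory series and kept constant in the industrial one. It also reports lower viability and faster death in the industrial retentostats. Their growth rate, as far as it was estimated, stayed above the lowest one under laboratory conditions. Condition, glucose feed, viability, growth rate reached, sequencing set and spacing of the points cannot be told apart in this comparison. With point 1 set against the later points in place of the slope, 0 members were called. *MRPL6* had the largest negative difference (−0.06, SE 0.09, adjusted p = 0.70). The count was 15 without industrial point 2 culture 1 and 4 without point 3 culture 1. It was 1 without industrial point 1 culture 1, either industrial point 4 library or either laboratory point 1 library, and 0 without industrial point 1 culture 2 or laboratory point 4 culture 2.

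Slopes went with gene length within the set. Across the members, Spearman's rho between slope and length was −0.47 in the laboratory series (54 genes) and −0.57 in the industrial series (53 genes), against −0.20 and −0.03 across 5372 coding genes. Members were between 213 and 1887 bases long, and *MRPL33* and *MRPL37* have 261 and 318 bases while *MRPL4* and *MRPL3* have 960 and 1173. At low pH against the reference rho was 0.10. Genes share their libraries and are not independent replicates, so these values are a description. Slopes also went with the mean level of a member over the 26 libraries, with rho of 0.46 in the laboratory and 0.355 in the industrial series. The parts of transcript length and of level in the slopes were not tested.

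**Figure D4:**
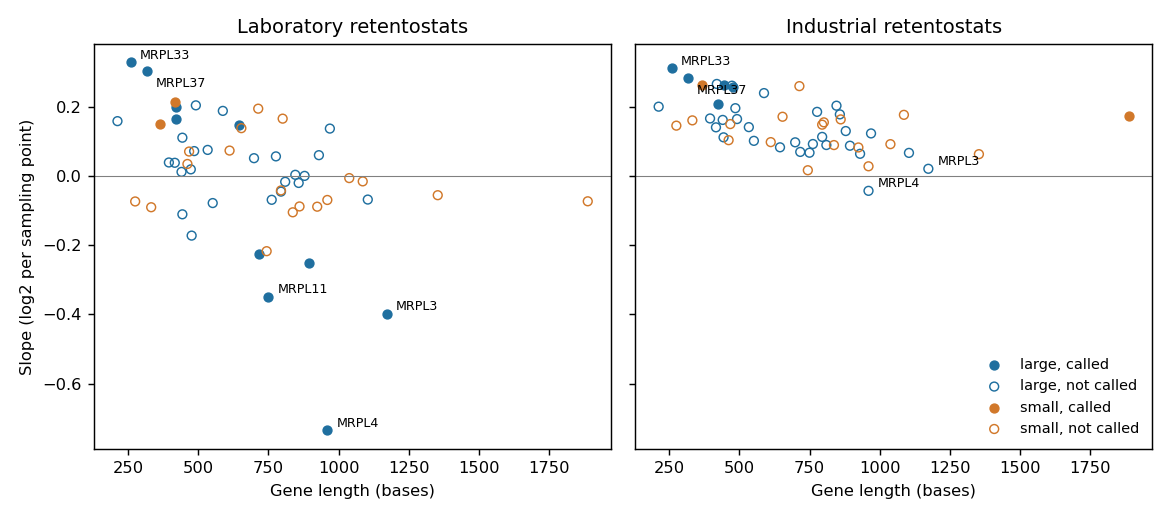
Slope over sampling points (log2 per point, y axis) against gene length in bases (x axis) for large-subunit (blue) and small-subunit (orange) genes, filled where called. Short genes such as *MRPL33* lie highest in both series, and the longer *MRPL4* and *MRPL3* lie at −0.73 and −0.40 in the laboratory and −0.04 and 0.02 in the industrial series.

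Among related lists, the other mitoribosomal genes had 6 rising (26.1%) and 5 falling (21.7%) members of 23 in the laboratory trend, against 17.0% and 13.4% of all genes. *RTC6* rose (0.34, SE 0.09, adjusted p = 0.020) and *MRP20*, homolog of L23 beside the tunnel exit, fell (−0.58, SE 0.10, adjusted p = 0.0079). *OXA1* fell as well (−0.50, SE 0.08, adjusted p = 0.0070). In the industrial series at point 4 against point 1, 8 of the 23 rose (34.8%) and 0 fell, against 13.7% and 13.3% of all genes, with a median of 0.53 and *MRP21* first (0.91, SE 0.20, adjusted p = 0.019). The 132 cytosolic ribosomal protein genes went the other way there, with a median of −0.44, 82 called lower (62.1%) and 0 higher, *RPL4A* falling most (−1.15, SE 0.21, adjusted p = 0.010). Of 36 nuclear genes of oxidative phosphorylation 30 had a negative change, with a median of −0.36. Among them 5 were called lower (13.9%, near the 13.3% of all genes), *QCR2* by the largest step (−0.999, SE 0.19, adjusted p = 0.013). In the same list 1 gene rose, *COX13* (0.56, SE 0.15, adjusted p = 0.035). Of 56 ribosome biogenesis genes 2 rose there (3.57%) and 0 fell, with a median of −0.26. In the laboratory trend 13 of the 56 fell (23.2%) and 0 rose.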

How the data were processed

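RNA sequencing of 26 libraries was analysed. The authors deposited FPKM values of 6600 genes per library. Per the labels and the methods, reads were aligned to R64 with STAR 2.5.3a, ambiguous reads were removed and reads were counted with HTSeq; edgeR was the authors' tool for their own tests. The labels name 1 sequencing company for all libraries, the methods 2. Converted back to reads with gene length and library depth, 99.7% to 99.9% of values of up to 1000 reads were whole to within 0.05.

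FPKM were scaled by the median ratio to the geometric mean of each gene over 26 libraries and tested with limma 3.58.1 in R 4.3.3 (two-sided, mean-variance trend) on log2(scaled FPKM + 1), which understates changes of low genes. Steady-state groups shared 1 fit, and each retentostat series had its own. Comparisons with a shared group are not independent. The fits were tested on simulated data. Of 6600 identifiers, 5917 were found in R64; overlaps with the other 683 could not be checked. *MRPL19* overlaps *YNL184C* on the same strand, so that reads in the overlap may be ambiguous and left uncounted. *MRPL51* overlaps *YPR099C* on the opposite strand. The methods name strand-specific libraries but not whether strand was used in counting.

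Members and lists were chosen with earlier results of these data known. Named were all members called where 6 or fewer were called in a direction and otherwise the 3 with the largest change, the 1 with the largest change where none was called, and the 2 highest and lowest per subunit. For related lists the rule took the largest rise and fall among the genes called, and not all of these are printed. Libraries of 1 retentostat number come from 1 culture, per their titles; deviations from the point means correlated with r from −0.02 to 0.72 (laboratory) and from −0.07 to 0.22 (industrial) for the same culture. For chemostats the labels name replicates, and p-values measure the spread between these libraries. Alternatives were the deposited values, quantile normalization, a pseudocount of 0.1, no filter, each library left out, replicate blocks, only the libraries compared, the methods' limits, and point 1 against the later points; a filter within the libraries fitted was chosen after seeing the data. Tables were made with python 3.11.15 and pandas 2.3.3.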

Additional observations from a re-analysis of the deposited data

Results flagged for a closer look

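Effects of CO2 differed between the 2 pH values, by the interaction test of limma, for 8 members with a positive and 3 with a negative difference. The named ones were *MRPS8* (1.03), *MRPL51* (1.03), *MRPL32* (0.97), *MRPL4* (−1.39), *MRPL19* (−1.0) and *RSM7* (−0.74), in log2 units of the change with CO2 at pH 3 minus that at pH 5. *MRPL4* and *MRPL19* kept their call without each of the 12 libraries in turn, whereas *MRPS8*, *MRPL51*, *MRPL32* and *RSM7* lost it in 7, 9, 8 and 8 of those 12 fits.

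Slopes over the sampling points differed between industrial and laboratory retentostats for 7 members, all more positive under industrial conditions. The differences were 0.69 for *MRPL4*, 0.43 for *MRPL19* and 0.42 for *MRPL3* per point, and with point 1 against the later points in place of the slope 0 members were called. Condition, glucose feed, viability, growth rate reached, sequencing set and spacing of the points cannot be told apart in this test. No group had 4 or more libraries, so that no single library was tested against its group.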

How the results depend on the processing

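Without each library in turn, named members kept direction and side of the threshold in 492 fits, lost their call in 218, gained one in 4 and turned in 2 (*MRPL38*, from −0.17 without culture 1 to 1.17 without culture 2 of point 2 for laboratory point 2 against point 1, and *MRPL4*, from −0.12 without culture 1 to 0.013 without culture 2 of point 4 for industrial point 4 against point 1). Under the other alternatives the numbers were 448, 83, 0 and 3. The cause of each change was not tested. Over the libraries the median reads of a member were 590 for *MRPS8* and 1093.5 for *RSM22*.

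Leaving out libraries, members called lower at pH 3 with 0.04% CO2 ranged from 7 to 31 and called higher from 1 to 1 (median −0.63 to −0.34). For pH 5 with 50% CO2 the medians ran from −0.29 to −0.04 with 0 calls. For pH 3 with 50% CO2 against the reference, 2 to 9 were lower (−0.24 to 0.03), against pH 3 with 0.04% CO2 4 to 30 higher and 3 to 5 lower (0.34 to 0.42), and against pH 5 with 50% CO2 0 to 2 higher and 1 to 3 lower (−0.03 to 0.13). The interaction gave 0 to 31 positive and 2 to 4 negative (0.44 to 0.73). Shares of all genes called in the same fits are not given beside the counts of this paragraph. The laboratory trend gave 3 to 13 rising and 4 to 7 falling (−0.02 to 0.04), point 4 against point 1 0 to 12 and 0 to 7 (−0.08 to 0.14), point 2 against point 1 0 to 5 and 0 to 5 (−0.081 to 0.035), and point 4 against point 2 0 to 9 and 0 to 9 (−0.055 to 0.22). The industrial trend gave 0 to 48 rising (0.09 to 0.18), point 4 against point 1 0 to 47 (0.45 to 0.60), point 2 against point 1 0 to 52 (0.17 to 0.82), point 4 against point 2 0 to 2 rising and 0 to 24 falling (−0.33 to 0.34), and the slope difference 0 to 15 (0.08 to 0.17).

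With the values as deposited, members called higher were 10 for industrial point 2 and 28 for point 4 against point 1 (*MRPL4* 0.015), 14 in the industrial trend, 45 against 1 in the interaction (median 1.25), and 48 against 2 for CO2 at pH 3 (median 1.02, *MRPL3* 0.31). Called lower were 49 at pH 3 with 0.04% CO2 (−0.96), 2 for pH 3 with 50% CO2 against the reference and 1 for laboratory point 4 against point 2. Medians were 0.20 for pH 3 against pH 5 at 50% CO2, 0.065, 0.18 and 0.059 for laboratory point 2 and point 4 against point 1 and the trend. Quantile normalization gave 7 and 22 for industrial points 2 and 4, 13 in the trend, 21 in the interaction, 32 higher and 3 lower for CO2 at pH 3 (0.51), 3 lower for pH 3 with 50% CO2 against the reference, 6 lower for laboratory point 4 against point 2 and a median of 0.028 for laboratory point 2 against point 1. No filter gave 1 and 9 for industrial points 2 and 4, 5 in the interaction and 5 higher for laboratory point 4 against point 2. Of all genes, quantile normalization called 465 and 815 higher for industrial points 2 and 4, 542 in the industrial trend and 561 in the interaction. For CO2 at pH 3 it called 1480 of them higher and 1157 lower.

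Fits with only the libraries compared called 8 lower at pH 3 with 0.04% CO2, 32 higher for CO2 at pH 3, and 2 and 1 lower for pH 3 with 50% CO2 against the reference and against pH 5. With the chemostat-labelled library alone, where the other groups supply the spread and the lone library is assumed to vary like them, 2 were positive in the interaction, 4 higher for CO2 at pH 3 and 3 lower against the reference. A fold over 2 with an adjusted p under 0.005 left 0 and 0 in the interaction, 0 and 0 at pH 3 with 0.04% CO2, 0 higher and 2 lower for CO2 at pH 3, 1 lower against the reference and 0 lower against pH 5. An adjusted p under 0.03 with R2 over 0.8 left 2 rising in the industrial and 3 falling in the laboratory trend. Point 1 against the later points gave 15 in the industrial trend (*MRPL4* 0.13), 0 and 0 in the laboratory trend and 0 for the slope difference. The chemostat numbers mark separate cultures (r from −0.76 to 0.45 for the same number), and their replicate block gave 2 positive in the interaction, 13 higher for CO2 at pH 3 and 2 lower against the reference. Culture as a replicate block gave 1 for industrial point 2 against point 1 and, besides the calls named in the report, changed no other named call of the retentostats.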
